A study of Homo sapiens with 4 samples.

Results

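The cytosolic chaperones and heat shock proteins were followed in OPM2, a cell line long established from human multiple myeloma, which is a tumour of plasma cells. The cells were compared with and without VS-5584 (SB2343), a drug that blocks mTOR as well as the class I PI3 kinases. The members were protein-coding genes named HSPA, HSPB, HSPD, HSPE, HSPH, HSP90A, DNAJA, DNAJB, DNAJC or CCT. The group's further symbols were TCP1, STIP1, BAG1, BAG2, BAG3, HSF1, HSPBP1 and HSPBAP1. Together these gave 79 of the 18377 genes measured. The rule goes by name and not by measured values. It also takes in chaperones of mitochondria (HSPD1, HSPE1, HSPA9, DNAJA3, DNAJC11, DNAJC15, DNAJC19) and of the endoplasmic reticulum (HSPA13, DNAJC1, DNAJC10), so it is wider than the cytosol. The rule leaves out HSPA5, DNAJB9, DNAJB11 and DNAJC3, and the 11 pseudogenes whose symbols matched were also left out. Genes seen only in probe sets of several genes, such as DNAJC25 and HSPB2, were not members either. HSPA1A and HSPA1B, the stress-inducible HSP70 genes, shared all their probe sets with each other and are described apart from the 79, and AHSA1 was not analysed here.

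The control group was 2 arrays of OPM2 cells given DMSO, the drug's solvent, for 24 h. The treated group was 2 arrays of OPM2 cells given VS-5584 at 123 nM for 24 h. The series' design text gives 125 nM for the same treatment and places it below the dose that inhibits the line by the IC50 measure at 48 h. The labels call the 2 arrays of a group biological replicates of a single cell line, and name no other allele, agent or batch.

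Chaperones bind unfolded or newly made proteins and help them to fold. HSP70 proteins do this in cycles of ATP use that J-domain proteins (DNAJA, DNAJB, DNAJC) start and that nucleotide exchange factors, such as the HSP110 proteins and BAG proteins, bring to an end. HSP90 completes the folding of kinases and receptors, and the ring-shaped chaperonins CCT (cytosol) and HSPD1 with HSPE1 (mitochondria) enclose their clients. HSF1 is the transcription factor that switches on the inducible members when proteins unfold, and myeloma cells, which secrete antibody chains, are known for a heavy folding load.

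Levels are log2 of the deposited array intensity, and a difference is the VS-5584 mean minus the DMSO mean on that scale, with the SE of the limma model. The lowest 40% of genes by mean intensity were not tested, which left 11026 genes, 60 of the 79 members among them. Array medians lay between 49.3 and 52.5 on the intensity scale. VS-5584 replicate 2 stood apart: its log2 values had an interquartile range of 1.74 (other arrays: 1.93 to 1.95), and the SD of the log2 difference between arrays was 0.25 for the treated pair and 0.17 for the control pair. The median difference over all genes tested was −0.06, being −0.0022 on VS-5584 replicate 1 and −0.14 on VS-5584 replicate 2. All 7 plasma cell marker genes listed (SDC1, TNFRSF17, IRF4, PRDM1, XBP1, SLAMF7 and CD38) were above the intensity limit, and of 8 markers of other cells measured, 3 were (PAX5, COL1A1 and PECAM1). Since RNA was labelled from the same amount of total RNA for each array, fewer cells and less RNA per cell cannot be told apart.

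No member passed the threshold of 0.05 after Benjamini-Hochberg adjustment over the genes tested, and the smallest adjusted p among them was 0.254 (limma). Over all genes the count was also 0 (0%), with 985 genes (8.93%) lower and 164 (1.49%) higher at an unadjusted p under 0.05. Without VS-5584 replicate 1, when replicate 2 alone stood for the treated cells, 18 of 60 members passed the adjusted threshold, as did 2636 of all 11026 genes (23.9%), and without VS-5584 replicate 2 the count was 0. The members' levels are therefore given as measured differences, read against these shares. At the unadjusted level 9 of 60 members (15%) were lower and 0 were higher. Those 9 were HSPH1, HSPA4L, HSPA14 and HSPA4 of the HSP70 and HSP110 group, the J-domain genes DNAJB1 and DNAJC11, the mitochondrial co-chaperonin HSPE1, the HSP70-HSP90 adaptor STIP1 and the chaperonin subunit CCT4.

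In counts of direction, 49 of 60 members (81.7%) were lower on average in treated cells, against 62.7% of all genes tested. Both treated arrays lay below both control arrays for 27 members (45%), against 29.2% of all genes, and above them for 5 (8.33%), against 14.7%. The members' median difference was −0.12, against −0.06 over all genes. It was −0.07 on VS-5584 replicate 1 and −0.20 on VS-5584 replicate 2. After each array was centred on its own median, 30 of 60 members were lower and their median was −0.0051, where all genes had a median of 0.05. With cyclic loess scaling 37 were lower with a median of −0.05, where all genes had 0.0056. The members' median thus moved with the scaling, as did that of all genes, and it was the lower of the pair each time. That gap was not tested. The genes described next differed in how far they kept their direction.

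**Figure D1:**
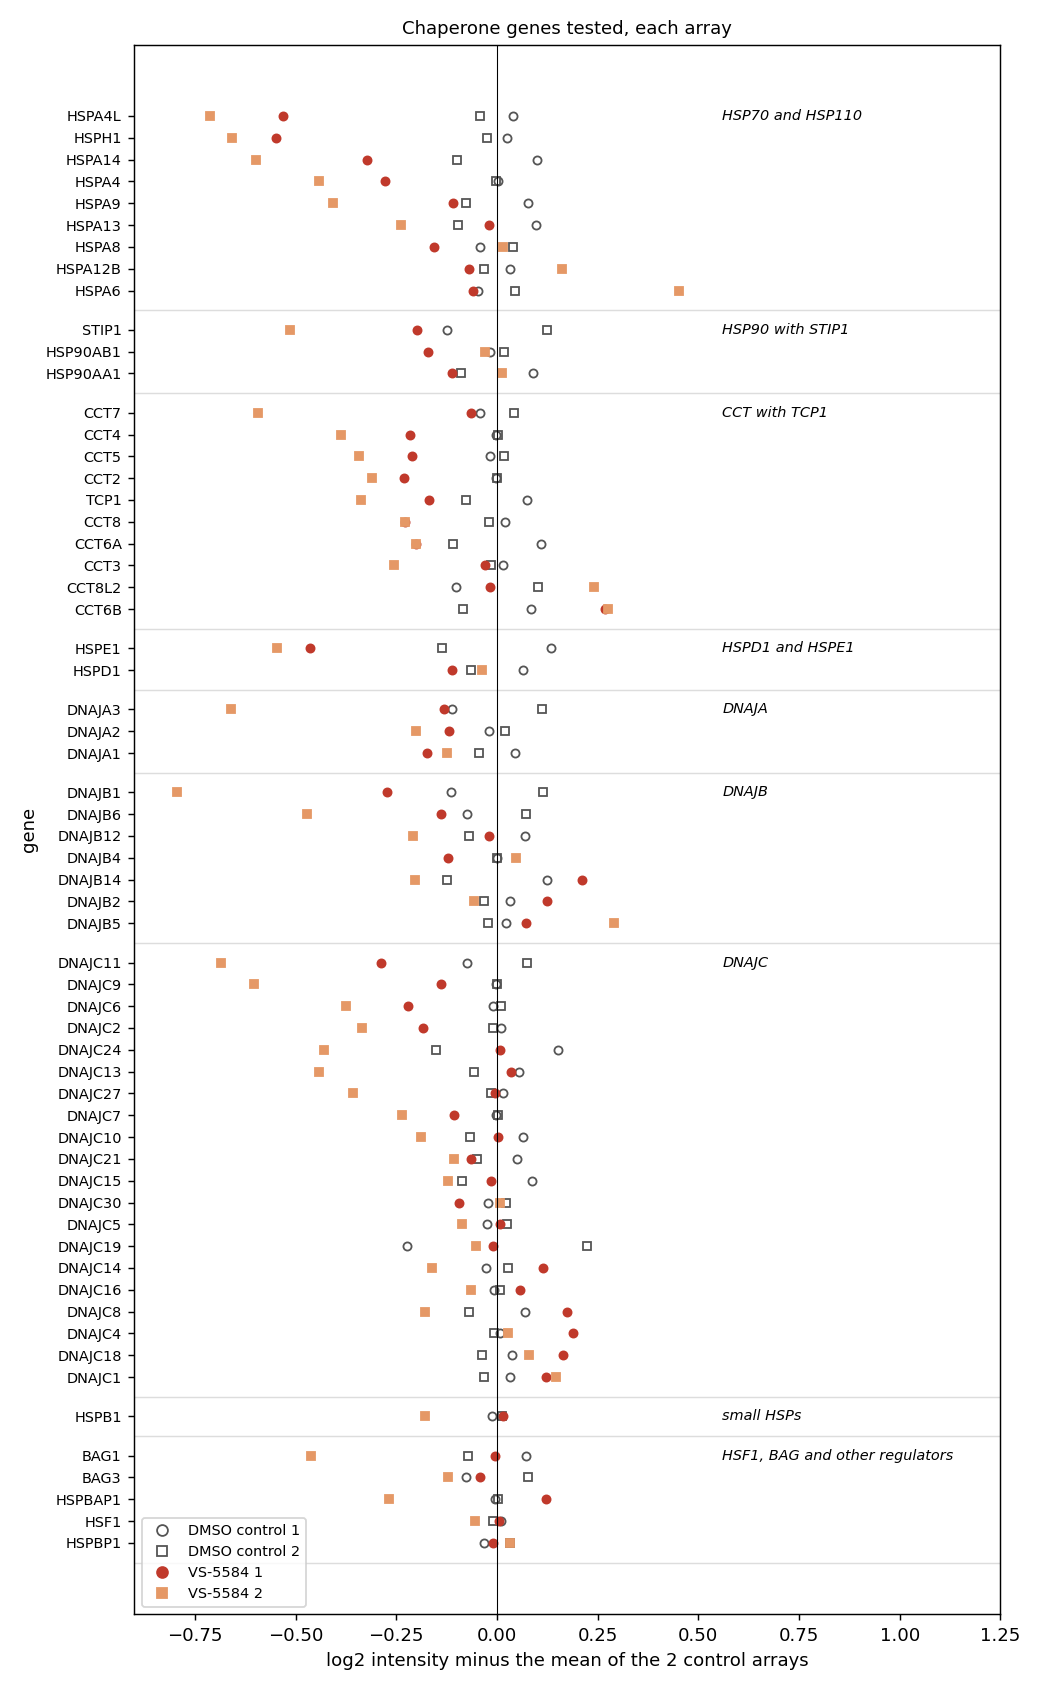
Log2 intensity of each of the 60 chaperone genes tested on each of the 4 arrays, minus the mean of the 2 control arrays (x axis), grouped by role. The filled symbols of VS-5584 lie left of both open control symbols for 27 genes, with HSPH1 and HSPA4L set apart on both treated arrays, and CCT6B lies to the right.

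For 6 members the bases before the transcription start are shown, because they set genes whose groups did not overlap (HSPH1, HSPA4L, HSPE1, DNAJB1) beside genes whose groups did (HSPA8, HSP90AA1). Capitals mark heat shock elements, the sequence that HSF1 binds, searched on both strands as GAANNTTC or TTCNNGAA (2 units) and as their overlap into 3 units. The sequences are RefSeq's on GRCh38.p14, 5′ to 3′ on the gene's strand, up to the base before the listed start. They are HSPH1 (chr13:31162389-31162638, minus strand), HSPA4L (chr4:127782072-127782321, plus strand, 1 of 3 listed starts), HSPE1 (chr2:197500129-197500378, plus strand), HSPA8 (chr11:123062137-123062386, minus strand), HSP90AA1 (chr14:102087045-102087144, minus strand, 1 of 2 listed starts) and DNAJB1 (chr19:14518398-14518497, minus strand, 1 of 3 listed starts).
HSPH1: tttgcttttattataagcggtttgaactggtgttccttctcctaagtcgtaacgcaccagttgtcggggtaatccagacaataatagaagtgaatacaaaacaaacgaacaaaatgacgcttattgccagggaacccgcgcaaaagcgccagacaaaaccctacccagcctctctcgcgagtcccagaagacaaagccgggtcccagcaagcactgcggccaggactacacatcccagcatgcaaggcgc
HSPA4L: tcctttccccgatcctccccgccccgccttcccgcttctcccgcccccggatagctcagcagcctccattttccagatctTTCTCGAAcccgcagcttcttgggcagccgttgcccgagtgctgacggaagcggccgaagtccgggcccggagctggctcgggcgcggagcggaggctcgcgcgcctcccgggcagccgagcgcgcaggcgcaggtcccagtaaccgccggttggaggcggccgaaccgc
HSPE1: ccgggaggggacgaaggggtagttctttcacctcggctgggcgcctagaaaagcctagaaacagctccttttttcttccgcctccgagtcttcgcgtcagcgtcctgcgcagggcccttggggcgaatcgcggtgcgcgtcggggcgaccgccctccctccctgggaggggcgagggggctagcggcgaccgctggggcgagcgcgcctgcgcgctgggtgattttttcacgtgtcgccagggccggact
HSPA8: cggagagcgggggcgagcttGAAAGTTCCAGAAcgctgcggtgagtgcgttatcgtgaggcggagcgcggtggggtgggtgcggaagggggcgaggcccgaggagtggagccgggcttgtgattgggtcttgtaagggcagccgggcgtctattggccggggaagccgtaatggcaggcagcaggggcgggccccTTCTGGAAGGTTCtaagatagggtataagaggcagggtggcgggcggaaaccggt
HSP90AA1: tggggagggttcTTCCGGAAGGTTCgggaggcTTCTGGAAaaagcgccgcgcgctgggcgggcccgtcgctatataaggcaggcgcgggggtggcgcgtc
DNAJB1: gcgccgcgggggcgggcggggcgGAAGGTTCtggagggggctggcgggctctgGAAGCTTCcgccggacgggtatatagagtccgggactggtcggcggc

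The HSPA8 bases hold 4 of the 2-unit matches, joined into 2 of the 3-unit form, and those of HSP90AA1 hold 3, of which a pair forms 1 of the 3-unit form. The DNAJB1 bases hold 2 separate 2-unit matches and HSPA4L holds 1, the only match over its 3 listed starts. Where several starts are listed, the one with the most 2-unit matches was shown. For HSP90AA1 and DNAJB1 100 bases are shown and for the others 250, so these counts are over unlike lengths. No match lies in the bases shown for HSPH1 or HSPE1, which says only that these letters are not there. HSPD1, whose start is 105 bases from that of HSPE1, has 3-unit matches beginning 245 and 240 bases before its own start. On the opposite strand these lie past the HSPE1 start, outside the bases shown for HSPE1. Their absence there thus does not set HSPE1 apart from HSPD1. In windows of 250 bases before to 50 bases after the start, 27 of 95 member windows (28.4%) held a 2-unit match, against 13.5% of 35116 windows of all genes. The 3-unit form was in 7 member windows (7.37%), against 0.49% of all windows. Its 7 genes were DNAJA1, DNAJB6, HSP90AA1, HSP90AB1, HSPA6, HSPA8 and HSPD1, whose differences ran from −0.30 (DNAJB6) to 0.20 (HSPA6). DNAJA1, DNAJB6 and HSP90AB1 were lower without overlap, as were 45% of the members tested and 29.2% of all genes. HSP90AA1, HSPA6, HSPA8 and HSPD1 overlapped, so the 3-unit form was not confined to genes with overlapping groups. None of those 7 was among the 9 genes with an unadjusted p under 0.05, a p that 15% of the 60 members tested had. With so few genes, no conclusion can be drawn from that count. The E-box CACGTG, the same on both strands, was in 7.37% of member windows and in 7.26% of all windows, and in the HSPE1 bases it lies near the start. Of the 79 members, 8 had no window.

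Among the HSP70 and HSP110 genes, HSPH1 and HSPA4L stood lowest against control. Both encode HSP110 proteins, which release ADP from HSP70 and keep unfolded proteins soluble. HSPH1 (HSP105) measured 10.62 and 10.56 on the control arrays and 10.04 and 9.93 on the treated arrays. Its means were 10.59 ± 0.04 and 9.99 ± 0.08 (SD, n = 2 each), a difference of −0.60 ± 0.13 (SE; 95% interval −0.90 to −0.31), or 1.52-fold lower (limma unadjusted p = 0.00116, adjusted p = 0.254). Both treated arrays lay well below both controls, at −0.55 and −0.66 from the control mean. With an intensity trend in the variance model its adjusted p was 0.015 (limma).

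HSPA4L, a second HSP110 gene known for its high level in testis, measured 7.94 and 7.86 in controls and 7.37 and 7.18 in treated cells. Its means were 7.90 ± 0.06 and 7.28 ± 0.13 (SD, n = 2 each), a difference of −0.62 ± 0.14 (SE; 95% interval −0.93 to −0.31), 1.54-fold lower (limma unadjusted p = 0.00123, adjusted p = 0.254). Again the groups did not overlap, with the treated arrays at −0.53 and −0.71 from the control mean. Ranked from the lowest difference among the 11026 genes, HSPA4L was 55 on VS-5584 replicate 1 and 409 on VS-5584 replicate 2, and HSPH1 was 45 and 558.

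HSPA4 (APG-2), the third HSP110 gene, measured 9.75 and 9.74 in controls and 9.47 and 9.30 in treated cells. The difference was −0.36 ± 0.13 (SE; 95% interval −0.66 to −0.06), 1.28-fold lower (limma unadjusted p = 0.0238, adjusted p = 0.426). The gap to the controls was wider than the spread within either pair. The HSP110 genes were thus lower without overlap for 3 of 3 members, where 29.2% of all genes were. HSPH1 and HSPA4L had the smallest unadjusted p of their role, and HSPA4 was added after its values were seen. The count is therefore not independent of that choice. The differences of these HSP110 genes stayed between −0.55 and −0.23 under median centring, under cyclic loess and without VS-5584 replicate 2.

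HSPA14, an HSP70 that sits on the ribosome with the J-domain protein DNAJC2, measured 8.65 and 8.45 in controls and 8.23 and 7.95 in treated cells. The difference was −0.46 ± 0.15 (SE; limma unadjusted p = 0.0129, adjusted p = 0.375), 1.38-fold lower. Its partner DNAJC2 measured 9.32 and 9.30 against 9.13 and 8.98, a difference of −0.26 ± 0.13 (SE; adjusted p = 0.53, limma). Neither gene overlapped between the groups.

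The constitutive HSP70 of the cytosol, HSPA8 (HSC70), is among the most abundant chaperones. It measured 11.76 and 11.84 in controls and 11.64 and 11.81 in treated cells, so that the groups overlapped. Its difference was −0.07 ± 0.14 (SE; 95% interval −0.37 to 0.23; adjusted p = 0.865, limma). The difference of HSPH1 minus that of HSPA8 was −0.53, a pair set side by side after their values were seen. That gap compares the genes with each other and does not show that HSPA8 kept its level.

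The other HSP70 genes differed by less than HSPA14. HSPA9 (mortalin, the mitochondrial HSP70) measured 11.05 and 10.90 against 10.87 and 10.57, a difference of −0.26 ± 0.15 (SE; adjusted p = 0.564, limma) that was −0.11 without VS-5584 replicate 2. HSPA13 measured 9.24 and 9.05 against 9.13 and 8.91, with overlap. HSPA6, a stress-inducible HSP70 and the dimmest member tested, measured 5.55 and 5.64 against 5.54 and 6.05, where VS-5584 replicate 2 alone was high. In all, 7 of the 9 genes tested in this group were lower on average (62.7% of all genes were) and 5 of them did not overlap (29.2% of all genes), with a median of −0.26. That median was −0.16 on VS-5584 replicate 1 and −0.41 on VS-5584 replicate 2.

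HSPA1A and HSPA1B, the HSP70 genes that heat and misfolding induce most, were carried together by 5 probe sets with 4 distinct sets of values. In all 4 the treated arrays lay below both controls, as in 29.2% of all genes tested, with differences from −0.26 to −0.17. The 4 are readings of the same genes and not separate results. In each the controls were about as far apart as the group means, or further. A probe set above the intensity limit measured 6.05 and 6.31 in controls and 6.00 and 5.97 in treated cells. The dimmest, with a mean below the limit, measured 5.42 and 5.67 against 5.30 and 5.27. These near-identical genes cannot be told apart here, and the values are close to the intensity limit of 5.61 on the log2 scale.

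**Figure D2:**
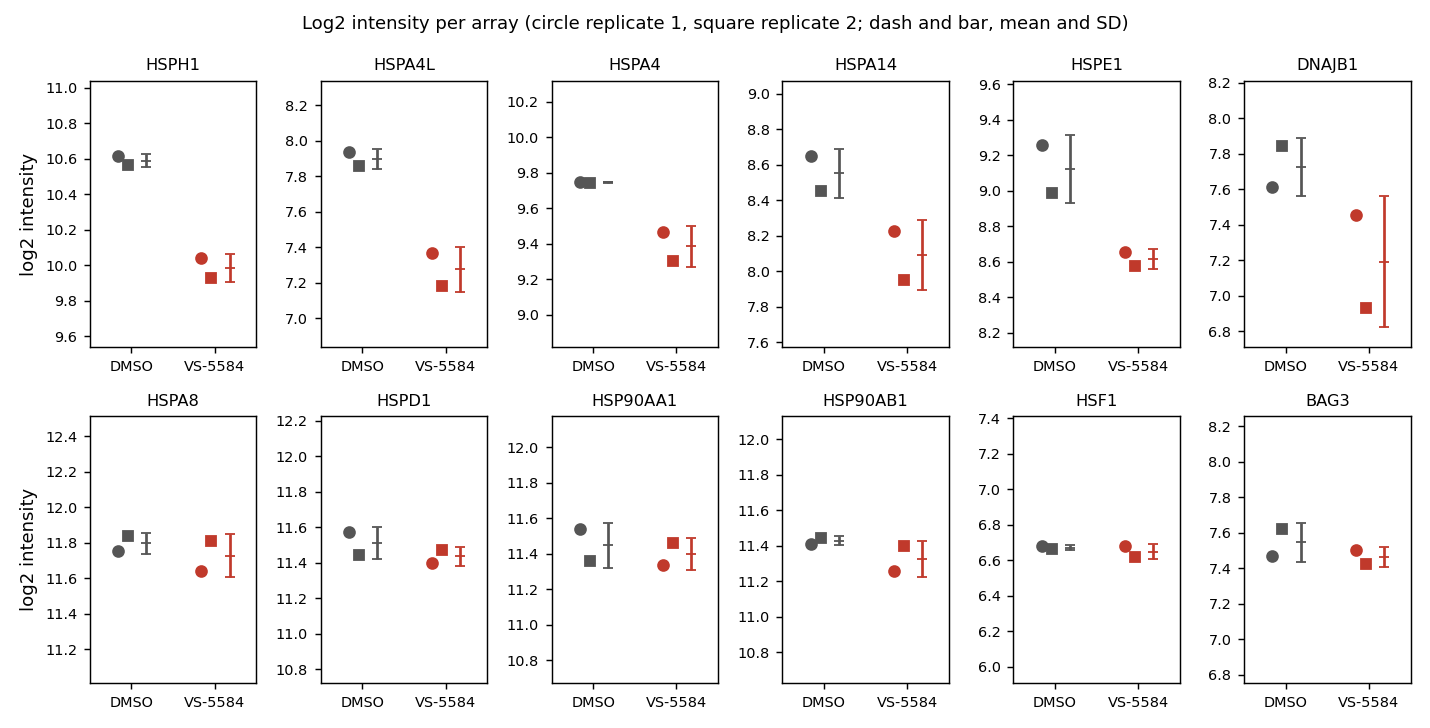
Log2 intensity (y axis) of 12 chaperone genes in DMSO and VS-5584 cells, circles for replicate 1 and squares for replicate 2, with the mean and SD of n = 2 beside them. In the upper row both treated arrays lie below both controls, as in HSPH1 at 10.04 and 9.93 against 10.62 and 10.56. In the lower row the groups overlap in each gene but HSP90AB1.

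The HSP90 genes overlapped between the groups or nearly so. HSP90AA1, the inducible form, measured 11.54 and 11.36 in controls and 11.34 and 11.46 in treated cells, a difference of −0.05 ± 0.14 (SE; 95% interval −0.36 to 0.26). HSP90AB1, the constitutive form, measured 11.41 and 11.45 against 11.26 and 11.40, a difference of −0.10 ± 0.13 (SE; 95% interval −0.40 to 0.20). The first had overlapping groups, while the second did not overlap by a margin smaller than the spread of its treated arrays. Median centring turned both directions, to 0.07 and 0.02. STIP1 (HOP), which hands clients from HSP70 to HSP90, measured 9.06 and 9.31 against 8.98 and 8.67, a difference of −0.36 ± 0.16 (SE; limma unadjusted p = 0.0497, adjusted p = 0.48). It was −0.20 on VS-5584 replicate 1 and −0.51 on VS-5584 replicate 2.

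The CCT ring folds actin and tubulin and is built of TCP1, CCT2, CCT3, CCT4, CCT5, CCT6A, CCT7 and CCT8. All 8 of these were lower in treated cells with no overlap between the groups, by −0.33 to −0.14, where 29.2% of all genes were lower with no overlap. Their median was −0.26 against −0.06 over all genes. None of the 8 passed the adjusted threshold, and CCT4 alone had an unadjusted p under 0.05. TCP1, the subunit that gave the ring its older name, measured 12.32 and 12.17 in controls and 12.08 and 11.91 in treated cells.

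CCT2 measured 10.31 and 10.31 in controls against 10.08 and 10.00, a difference of −0.27 ± 0.13 (SE). CCT4 measured 9.42 and 9.43 against 9.21 and 9.04, a difference of −0.30 ± 0.13 (SE; limma unadjusted p = 0.0499, adjusted p = 0.48). CCT5 measured 11.13 and 11.17 against 10.94 and 10.81, a difference of −0.28 ± 0.13 (SE). In these subunits the gap between groups was wider than the spread of either pair.

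CCT6A measured 10.61 and 10.40 against 10.30 and 10.31, a difference of −0.20 ± 0.14 (SE). CCT8 measured 8.88 and 8.84 against 8.63 and 8.63, a difference of −0.23 ± 0.13 (SE). CCT3 measured 11.17 and 11.14 against 11.12 and 10.90, a difference of −0.14 ± 0.14 (SE). In CCT3 the lower control and VS-5584 replicate 1 nearly met, and most of its difference came from VS-5584 replicate 2. The same held for CCT7, at 9.56 and 9.64 against 9.54 and 9.01, where the difference of −0.33 ± 0.18 (SE) became −0.06 without VS-5584 replicate 2.

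The 8 ring subunits stayed lower, 8 of 8, under each scaling. Median centring adds the same amount to every gene's difference, so under it this count only restates the values as deposited. It left CCT3, the nearest of the 8 to 0, at −0.03. Their median was −0.14 after median centring, −0.17 with cyclic loess and −0.21 without VS-5584 replicate 2. CCT6B, the testis-enriched relative of CCT6A, was higher instead, at 6.48 and 6.31 in controls and 6.66 and 6.67 in treated cells, a difference of 0.27 ± 0.13 (SE; adjusted p = 0.517, limma). CCT8L2, a CCT8-like gene, measured 6.51 and 6.71 against 6.59 and 6.85, with overlap.

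The parts of the mitochondrial chaperonin differed by unequal amounts. HSPE1 (HSP10), the lid of the barrel, measured 9.26 and 8.99 in controls and 8.66 and 8.57 in treated cells. Its means were 9.12 ± 0.19 and 8.62 ± 0.06 (SD, n = 2 each), a difference of −0.51 ± 0.14 (SE; 95% interval −0.83 to −0.18), 1.42-fold lower (limma unadjusted p = 0.00614, adjusted p = 0.323). HSPD1 (HSP60), the barrel, measured 11.58 and 11.45 against 11.40 and 11.48, a difference of −0.07 ± 0.13 (SE; 95% interval −0.37 to 0.23), with overlap. The controls of HSPE1 were further apart than its treated arrays, and HSPD1 stayed near its control level on VS-5584 replicate 2.

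HSPD1 and HSPE1 lie head to head, with listed starts 105 bases apart on opposite strands. The difference of HSPE1 minus that of HSPD1 was −0.43, a pair chosen after the values were seen. The gap was not tested in a model, and with 2 arrays against 2 the smallest p that a two-sided exact permutation test can give is 0.333. Both genes, like HSPA8 and several CCT genes, have processed copies in the genome whose RNA may share probes, so that their levels are uncertain to that extent.

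Of the J-domain proteins of class A, which hand unfolded clients to HSP70, 3 of 3 tested were lower without overlap (29.2% of all genes were), with a median of −0.16. That median was −0.04 after median centring and −0.06 with cyclic loess, with 3 of 3 still lower. DNAJA1 measured 9.40 and 9.31 against 9.18 and 9.23, a difference of −0.15 ± 0.13 (SE). DNAJA2 measured 10.08 and 10.12 against 9.98 and 9.90, a difference of −0.16 ± 0.13 (SE). DNAJA3 (TID1), a mitochondrial member, measured 8.04 and 8.26 against 8.02 and 7.49, a difference of −0.40 ± 0.18 (SE) that was −0.13 on VS-5584 replicate 1 and −0.66 on VS-5584 replicate 2.

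In class B, DNAJB1 (HSP40), the heat-inducible partner of HSP70, measured 7.61 and 7.84 in controls and 7.45 and 6.93 in treated cells. The difference was −0.53 ± 0.18 (SE; 95% interval −0.95 to −0.12), 1.45-fold lower (limma unadjusted p = 0.0166, adjusted p = 0.401). The groups did not overlap, but without VS-5584 replicate 2 the difference was −0.27. DNAJB6, a suppressor of protein aggregation, measured 7.40 and 7.54 against 7.33 and 7.00, a difference of −0.30 ± 0.15 (SE) that was −0.14 without VS-5584 replicate 2. DNAJB5 was higher, at 5.82 and 5.77 against 5.87 and 6.09. The 7 class B genes tested had a median of −0.04, with 4 lower, and after median centring 0.08 with 2 lower.

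Class C holds J-domain proteins of many compartments, and 17 of its 20 genes tested were lower (62.7% of all genes were). Of the 20, 6 were lower without overlap, a share near the 29.2% of all genes. Its median of −0.08 was close to that of all genes, and became 0.04 after median centring and −0.0013 without VS-5584 replicate 2. DNAJC11, a protein of the mitochondrial outer membrane, stood lowest, at 7.91 and 8.06 in controls and 7.70 and 7.30 in treated cells. Its difference was −0.49 ± 0.16 (SE; limma unadjusted p = 0.0138, adjusted p = 0.381), with −0.29 on VS-5584 replicate 1. DNAJC6 (auxilin, which strips clathrin from vesicles) measured 6.75 and 6.77 against 6.54 and 6.39, a difference of −0.30 ± 0.13 (SE). DNAJC9, a histone-binding member, measured 8.54 and 8.54 against 8.40 and 7.94, a difference of −0.37 ± 0.17 (SE) that was −0.14 without VS-5584 replicate 2. In the other direction DNAJC1, of the endoplasmic reticulum, measured 10.58 and 10.51 against 10.67 and 10.69, a difference of 0.13 ± 0.13 (SE).

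**Figure D3:**
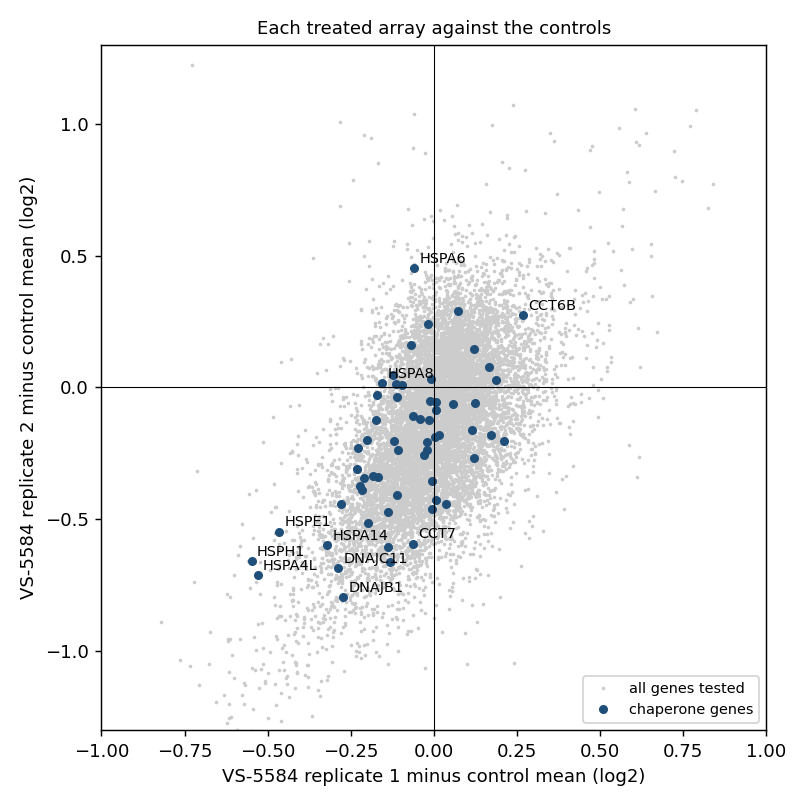
Difference from the control mean on VS-5584 replicate 1 (x axis, log2) and replicate 2 (y axis, log2), for the genes tested (grey) and the chaperone members (blue); 17 genes lie outside the axes. HSPH1, HSPA4L and HSPE1 are low on both arrays, while CCT7 lies at −0.06 on replicate 1 and −0.59 on replicate 2.

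The treated arrays differed by more than 0.3 in 15 members, and 14 of those were lower on VS-5584 replicate 2. Among the members the median size of the difference between the treated arrays was 0.17, against 0.08 between the controls. The narrower distribution of VS-5584 replicate 2 was therefore present beside these values, and its part in each was not tested. HSPH1, HSPA4L and HSPE1 were −0.55, −0.53 and −0.46 on VS-5584 replicate 1 alone.

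HSF1 itself measured 6.68 and 6.66 in controls and 6.68 and 6.62 in treated cells, a difference of −0.02 ± 0.13 (SE; 95% interval −0.31 to 0.27; adjusted p = 0.958, limma). BAG3, an exchange factor that sends clients to autophagy and is itself an HSF1 target, measured 7.47 and 7.62 against 7.50 and 7.43, a difference of −0.08 ± 0.13 (SE). BAG1 measured 8.83 and 8.69 against 8.75 and 8.29, where VS-5584 replicate 2 alone was low. HSPB1 (HSP27), the 1 small heat shock protein of 6 that was bright enough to test, measured 6.93 and 6.95 against 6.95 and 6.76. The groups overlapped in all 4 of these genes, and in 0 of the 5 regulators tested did they separate. Of all genes tested, 29.2% were lower and 14.7% higher without overlap. With only 5 genes, no conclusion can be drawn from that count.

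The 19 members that were too dim to test had mean levels from 4.71 to 5.56 and differences from −0.18 (BAG2) to 0.15, with 13 of 19 higher. The brightest of them was DNAJA4, at 5.56, and the dimmest tested was HSPA6, at 5.70. Of the 2 members with more than 1 probe set, DNAJC19 gave −0.03 and 0.10, and HSPA1L gave identical values.

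Genes that work with the members but fall outside the rule were read in the same fit. Of 8 HSP70 co-chaperones tested, 8 were lower and 7 of them did not overlap, where 62.7% and 29.2% of all genes did so. Their median was −0.32, being −0.15 on VS-5584 replicate 1 and −0.52 on VS-5584 replicate 2, and after median centring it was −0.20 with 7 of 8 lower. BAG4 measured 7.79 and 7.90 against 7.49 and 7.20, a difference of −0.50 ± 0.15 (SE; limma unadjusted p = 0.00701, adjusted p = 0.333). GRPEL1, the exchange factor of mitochondrial HSP70, measured 8.55 and 8.73 against 8.40 and 8.01, a difference of −0.44 ± 0.16 (SE; adjusted p = 0.426, limma) that was −0.24 on VS-5584 replicate 1. Of 9 HSP90 co-chaperones tested, 8 were lower and 5 did not overlap (62.7% and 29.2% of all genes), with a median of −0.18. After median centring 6 of the 9 were lower with a median of −0.06, and with cyclic loess the median was −0.08. FKBP4 measured 9.61 and 9.61 against 9.33 and 8.96, and CHORDC1 measured 9.79 and 9.76 against 9.42 and 9.33. These 4 genes did not overlap between the groups, where 29.2% of all genes were lower without overlap. They were taken as the 2 with the smallest unadjusted p in each list, a choice that favours such separation.

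Of 9 prefoldin and phosducin-like genes tested, which deliver clients to CCT, 8 were lower and 5 did not overlap (62.7% and 29.2% of all genes), with a median of −0.14. After median centring 5 of the 9 were lower with a median of −0.03, and with cyclic loess 4 were. PFDN1 measured 6.54 and 6.48 against 6.25 and 5.86, and TXNDC9 differed by −0.32 ± 0.17 (SE), with overlap and with −0.11 on VS-5584 replicate 1. Of 10 further chaperones of the endoplasmic reticulum and mitochondria, 7 were lower and 2 did not overlap, shares near or below the 62.7% and 29.2% of all genes, with a median of −0.10 (0.02 on VS-5584 replicate 1). TRAP1, the mitochondrial HSP90, differed by −0.38 ± 0.20 (SE), with overlap, and CALR by −0.19 ± 0.15 (SE). On VS-5584 replicate 1 alone these were −0.07 and −0.03. The factor HSF4 differed by 0.06 ± 0.14 (SE) and the HSF1-binding gene HSBP1 by 0.02 ± 0.14 (SE).

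The list of HSF1-inducible genes held 16 tested genes, 14 of them members. Of these 15 were lower and 9 did not overlap (62.7% and 29.2% of all genes), with a median of −0.12, being −0.17 on VS-5584 replicate 1 and −0.15 on VS-5584 replicate 2. After median centring 8 of the 16 were lower with a median of −0.0082, and under cyclic loess 12 were lower with −0.06. At an unadjusted p under 0.05 (limma) 7 of the 16 were lower, against 8.93% of all genes, and none passed the adjusted threshold. The count at that level was 6 after median centring (5.95% of all genes) and 6 with cyclic loess (7.16%). The list was chosen with earlier results of these data known.

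**Figure D4:**
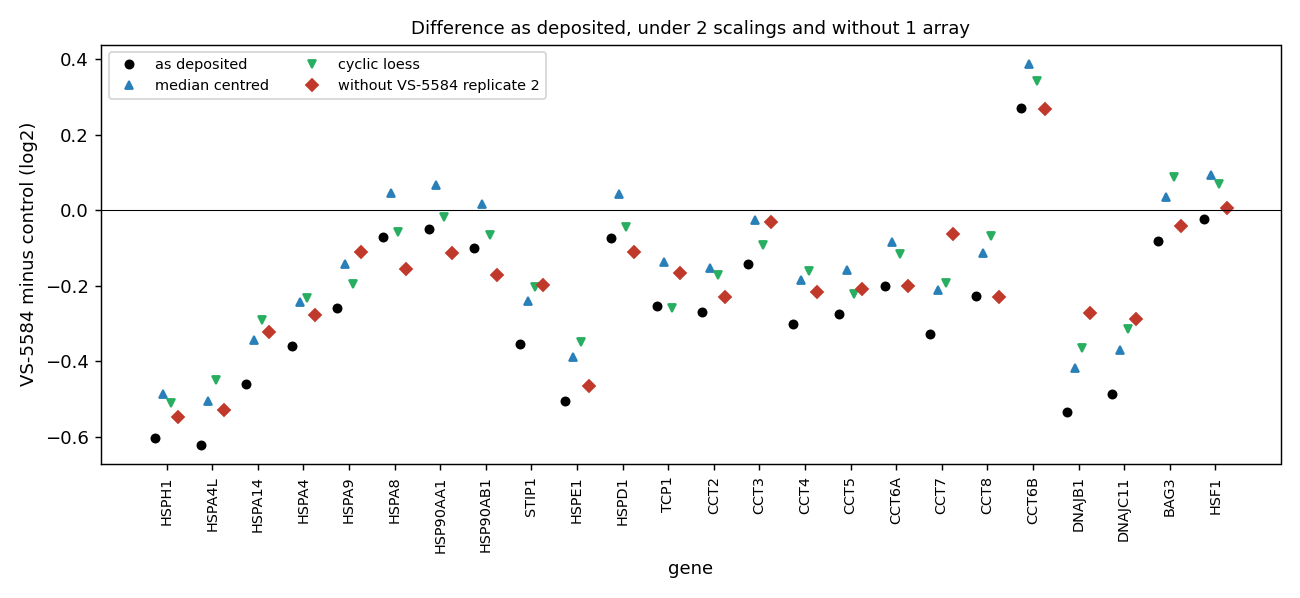
VS-5584 minus control difference (y axis, log2) of 24 chaperone genes as deposited, after median centring, after cyclic loess and without VS-5584 replicate 2. HSPH1, HSPA4L, HSPE1 and the 8 CCT ring subunits stay below 0 in each, while HSPA8, HSP90AA1, HSP90AB1 and HSPD1 cross 0 after median centring.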

How the data were processed

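RNA of 4 one-colour arrays was compared. Per the submitters' processing notes the authors used RMA, with no version. The deposited values are linear intensities per probe set, and the lowest on an array lies between 19.8 and 20.01. How RMA output came to that scale was not stated, and a constant added there would shrink the differences of dim genes. No scanner file was used here, and background calls were not made. The number of arrays limits the precision.

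Of 28869 probe sets, 19310 carried 1 gene, 1752 several and 7807 none listed. Of the first, 19279 matched RefSeq (GRCh38.p14) by gene ID and 31 kept the annotation's symbol. The 685 genes with several probe sets were represented by the brightest. The 40% of 18377 genes with the lowest mean (below 48.9) were left out. Log2 values were fitted with limma 3.58.1 (lmFit, eBayes; R 4.3.3), two-sided, with Benjamini-Hochberg adjustment over 11026 genes and a threshold of 0.05. The fit was tested on simulated data. Motifs and figures used Python 3.11.15 and matplotlib 3.10.9.

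The members and lists were chosen with earlier results of these data known. Values are given for the 2 members of each role with the smallest unadjusted p, all CCT genes, a panel of heat shock genes, and the 2 leading genes of each other list. DNAJC2, DNAJC9, DNAJC1, DNAJB5, HSPA6, HSPA13, HSPA4 and HSPA14 were added after their values were seen. FKBP5, TTC4, ST13 and HSF2 were not analysed here. The alternatives were other scalings, filters, probe set rules, a subtracted constant, variance models, a replicate term and each array left out.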

Additional observations from a re-analysis of the deposited data

How the results depend on the processing

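As reported, 0 genes and 0 members passed the adjusted threshold. The count over all genes was 99 after median centring, 20 with cyclic loess, 58 with the lowest 60% left out, 80 with an intensity trend, 2 with 16 subtracted, and 2 to 2636 with each array left out in turn (2636, or 23.9%, without VS-5584 replicate 1). Of the members, 1 (HSPH1) passed with the trend, and 0 to 18 with 1 array left out, the 18 being without VS-5584 replicate 1, when VS-5584 replicate 2 alone stood for the treated cells. Members lower at an unadjusted p under 0.05 numbered 9, and 5 with the ordinary test, 13 with no filter on dim genes, and 4 to 24 with 1 array left out (24 without VS-5584 replicate 1, 5 without control replicate 1, 4 without control replicate 2). Members higher numbered 0, against 1.49% of all genes. They numbered 1 (CCT6B) after centring (6.97% of all genes), with loess (5.61%) and with no filter (1.75%). The members' median of −0.12 was −0.0051 after centring, where all genes had 0.05, and ran from −0.20 to −0.067 with 1 array left out. With 1 array left out, the lone array of its group is assumed to vary like the others.

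Among the 30 members named in the text by rule, the direction turned in BAG3 (0.035 after centring, 0.089 with loess), HSF1 (0.093 and 0.069), HSPB1 (0.034 and 0.046), and, after centring, in HSP90AA1 (0.0665), HSP90AB1 (0.0155), HSPA8 (0.0465) and HSPD1 (0.043). With 1 array left out it also turned in CCT8L2 (−0.0172 to 0.24), HSF1 (−0.054 to 0.0062), HSP90AA1 (−0.14 to 0.0397), HSPA8 (−0.16 to 0.0156) and HSPB1 (−0.18 to 0.0139). Other members turned too: 49 of 60 were lower as reported and 30 after centring. Centring adds the same amount to the difference of every gene, and took the median of all genes from −0.06 to 0.05. Members that lay only slightly below 0 therefore turned together. Why the array medians differed was not tested. Of the 30 named members' values under alternatives with all 4 arrays, 254 of 270 kept direction and side of the threshold. Direction turned in 10, all after centring or with loess, and 6 came to pass the threshold. The replicate term, the filters, the probe set rules and the variance models changed no named member's difference. Direction could turn only with another scaling or a subtracted constant, so the count of 254 does not measure how firm the directions were. With 1 array left out, direction turned in 6 of 120 values.

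The groups share replicate numbers, which the labels do not say pair the samples, and the correlation of same-numbered deviations was 0.16 over 2 pairs. With a replicate block, 432 of 11026 genes and 5 of 60 members (DNAJB1, DNAJC11, HSPA4L, HSPE1 and HSPH1) passed. In that fit 13 members were lower at an unadjusted p under 0.05, as were 13.6% of all genes.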
